A study of Mus musculus with 12 samples.

Results

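The 40 genes described here encode parts of the primary cilium, the single antenna-like projection that most epithelial cells carry. They were taken as a fixed list of mouse symbols, and all 40 were found among the 53700 genes of the deposited count table. All 40 also had enough counts to be among the 15014 genes tested across libraries. RNA was sequenced from organoids of bile duct epithelium (intrahepatic cholangiocyte organoids), which are hollow cultures grown in Matrigel from liver tissue. Each of 6 mice gave 1 culture from the liver hilum and 1 from its periphery, and none of the cultures was treated. Mice 1219, 1220 and 1224 carried the Ndr allele of Jag1 on both chromosomes (Jag1 Ndr/Ndr, called Ndr), and mice 1221, 1223 and 1225 were wild type (Jag1 +/+, called WT). With both genotypes and both regions this makes 4 groups of 3 libraries. All libraries were made at passage 5, and the labels give no age of the mice. The series uses Ndr as a model of Alagille syndrome, an inherited disease with too few bile ducts. The Ndr allele is carried in every cell and is a missense change in Jag1, a Notch ligand, so the count of Jag1 reads does not check the genotype. WT cultures were derived on days 15, 15 and 21 of 1 month and Ndr cultures on days 17, 18 and 21, and only day 21 (mice 1224 and 1225) holds both genotypes.

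Cholangiocytes carry a primary cilium that extends from the apical surface into the duct lumen and senses bile flow and composition. The cilium is built and kept up by intraflagellar transport (IFT): the IFT-B complex with kinesin-2 motors carries cargo to the tip, and the IFT-A complex with the dynein-2 motor carries it back. The BBSome moves membrane proteins out of the cilium, ARL GTPases direct lipidated and membrane cargo into it, and a transition zone at its base acts as a gate. Cilia are taken down before a cell divides, and inherited faults in many of these genes cause liver disease with malformed bile ducts and fibrosis. The 40 genes fall into 11 of IFT-B, 6 of IFT-A, 7 of the BBSome, 3 ARL GTPases, 5 motor subunits, 7 of the transition zone and basal body, and the ciliary kinase Mak.

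Promoters of cilium genes are known for the X-box, a paired site bound by RFX transcription factors, and the members' promoters were searched for it. RefSeq promoter sequences (GRCm38.p6) were at hand for 35 members, and the 250 bases before each start were searched on both strands. The X-box was found in 4 of these 35 genes (11.4%), against 634 of all 27025 genes with a promoter (2.35%). These 4 genes were Bbs7, Ift22, Ift57 and Kif17, and their sites are given here 5′ to 3′ on the strand of the gene, each with 20 bases on either side, or up to the start of the gene where that is nearer. Capitals mark the X-box. Bbs7 lies on the minus strand of its chromosome and the other 3 genes on the plus strand. The stretches lie at chr3:36613477-36613530 for Bbs7, chr5:136908067-136908120 and chr5:136908097-136908149 for Ift22, chr16:49699187-49699240 and chr16:49699214-49699266 for Ift57, and chr4:138262158-138262210 for Kif17.
Bbs7: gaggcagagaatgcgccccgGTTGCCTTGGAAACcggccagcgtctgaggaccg
Ift22, far site: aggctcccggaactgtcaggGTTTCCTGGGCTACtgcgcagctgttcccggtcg
Ift22, near site: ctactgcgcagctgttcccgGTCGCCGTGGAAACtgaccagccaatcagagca
Ift57, far site: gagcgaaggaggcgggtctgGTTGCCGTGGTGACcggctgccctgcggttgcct
Ift57, near site: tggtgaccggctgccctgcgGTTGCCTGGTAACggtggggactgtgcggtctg
Kif17: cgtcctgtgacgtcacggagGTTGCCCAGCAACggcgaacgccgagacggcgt
The sites began 121 bases before the start of Bbs7, 63 and 33 bases before that of Ift22, 87 and 60 before that of Ift57, and 73 before that of Kif17. The near site of Ift57 matched the X-box on both strands. The shorter element GTTGCC, which is one arm of many X-boxes and overlaps them, was found on either strand in 8 of the 35 members (22.9%) and in 11.8% of all genes. A match says only that these letters are in the window. Among other gene lists, 7 of 46 further cilium genes (15.2%) and 0 of 29 proliferation genes held an X-box.

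Library depth ranged from 6708822 to 16030880 counts, and levels are given as CPM, counts scaled to library size with edgeR's TMM factors. The label of cholangiocytes was met by all 8 cholangiocyte markers, with Spp1 at a mean of 5191 CPM, Krt18 at 2576 and Krt7 at 1368. Among markers of other cells, the fibroblast and endothelial lists summed to at most 1.79 and 0.463 CPM in any library. The 6 hepatocyte markers summed to 13.6 to 45.2 CPM in Ndr hilar, 0.62 to 8.05 in Ndr peripheral, 0.502 to 16.9 in WT hilar and 1.80 to 11.3 in WT peripheral libraries. Ndr hilar and Ndr peripheral libraries thus did not overlap in this sum. Alb was the only 1 of the 6 with enough counts to be tested, Cps1 was at 0 in all 12 libraries, and the part of these transcripts in the cilium results was not tested. The 5 immune markers summed to 1.45 to 3.32 CPM in Ndr hilar, 3.30 to 6.86 in Ndr peripheral, 1.89 to 6.80 in WT hilar and 4.31 to 11.1 in WT peripheral libraries, with Adgre1 at 0. Exons of 8 members (Arl6, Bbs4, Cep290, Ift57, Ift88, Kif17, Tmem216 and Tmem67) overlap those of another gene over 1.45% to 7.86% of their length in GENCODE M21, and the reads of both genes cannot be told apart there. In these bulk samples, fewer ciliated cells and less RNA of a gene per cell cannot be told apart.

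All 40 genes were expressed, at levels that spanned a wide range once divided by the length of their exons. Per kb, the highest mean over 12 libraries was 27.1 CPM per kb for Dync2li1 (ENSMUSG00000024253), the light intermediate chain of dynein-2. Ift20, the IFT-B subunit that also sits at the Golgi, followed at 24.5 CPM per kb, and Ift57, a peripheral IFT-B subunit, at 19.1. The lowest were Kif17, an accessory kinesin-2 motor, at 0.237 CPM per kb, Mak (ENSMUSG00000021363) at 0.59 and Dync2h1, the dynein-2 heavy chain, at 1.3. The members' median of 5.54 CPM per kb compares with 6.73 over all genes tested, and 14 of the 40 stood above the latter. By class, the median per kb was 15.3 CPM for motors, 13.6 for ARL GTPases, 8.03 for IFT-B, 5.17 for IFT-A, 2.57 for the transition zone and basal body and 2.54 for the BBSome. The 2 subunits of the dynein-2 motor thus stood near opposite ends of the range.

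**Figure D1:**
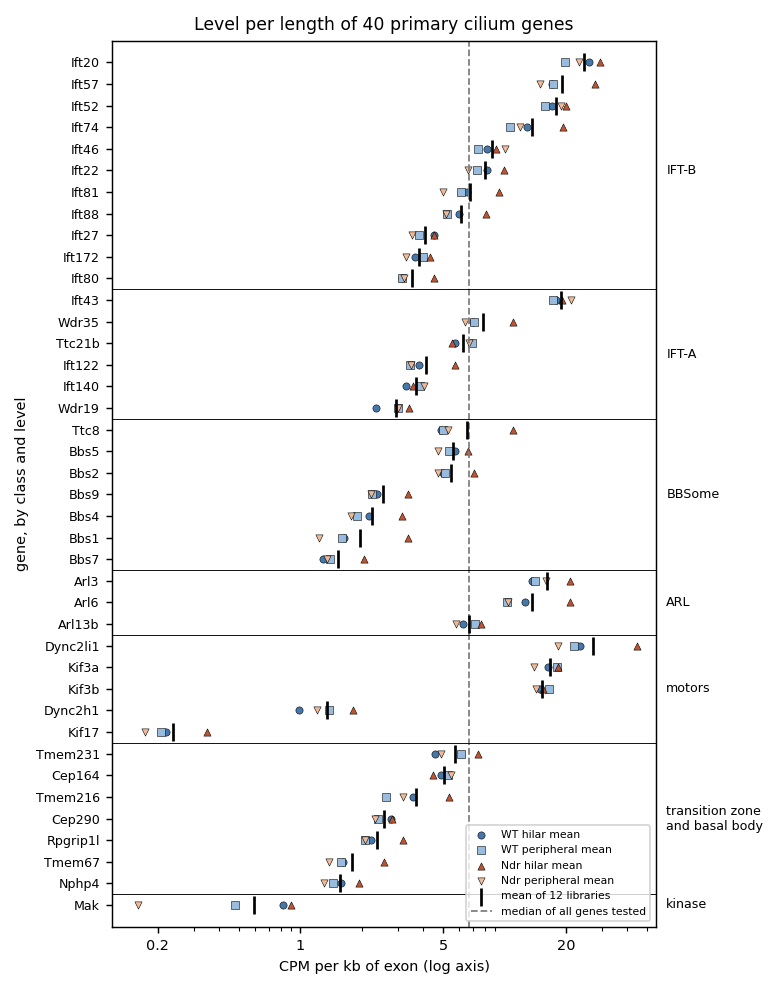
Level per length of each gene (CPM per kb of exon, log axis), with genes in rows by class; coloured points are the means of 3 libraries in each group, black ticks the mean of 12 libraries and the dashed line the median of all genes tested, 6.73 CPM per kb. Dync2li1 and Ift20 are highest and Kif17 and Mak lowest, and the Ndr hilar triangle is the rightmost group in most rows.

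The members did not stand alike in the 4 groups. Ndr hilar cultures had the highest group mean of log2 CPM for 31 of the 40 genes, while 31.5% of all genes tested were highest in that group. Ndr peripheral cultures had the lowest mean of log2 CPM for 23 of the 40, against 22.5% of all genes. After each gene's log2 CPM was centred on its mean over 12 libraries, the 40 genes averaged 0.35 ± 0.29 in Ndr hilar cultures (SD, n = 3) and -0.19 ± 0.26 in Ndr peripheral cultures. WT hilar cultures averaged -0.08 ± 0.36 and WT peripheral cultures -0.08 ± 0.22. The 3 Ndr hilar libraries stood at 0.12, 0.68 and 0.25 (mice 1219, 1220 and 1224). The 3 WT hilar libraries stood at 0.32, -0.18 and -0.37 (mice 1221, 1223 and 1225). WT hilar 1221 thus lay above 2 of the 3 Ndr hilar libraries, and the groups overlapped. Ndr hilar 1220 was the highest of 12 libraries for 24 of the 40 genes, Ndr hilar 1219 for 11, and Ndr peripheral 1220 the lowest for 13.

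**Figure D2:**
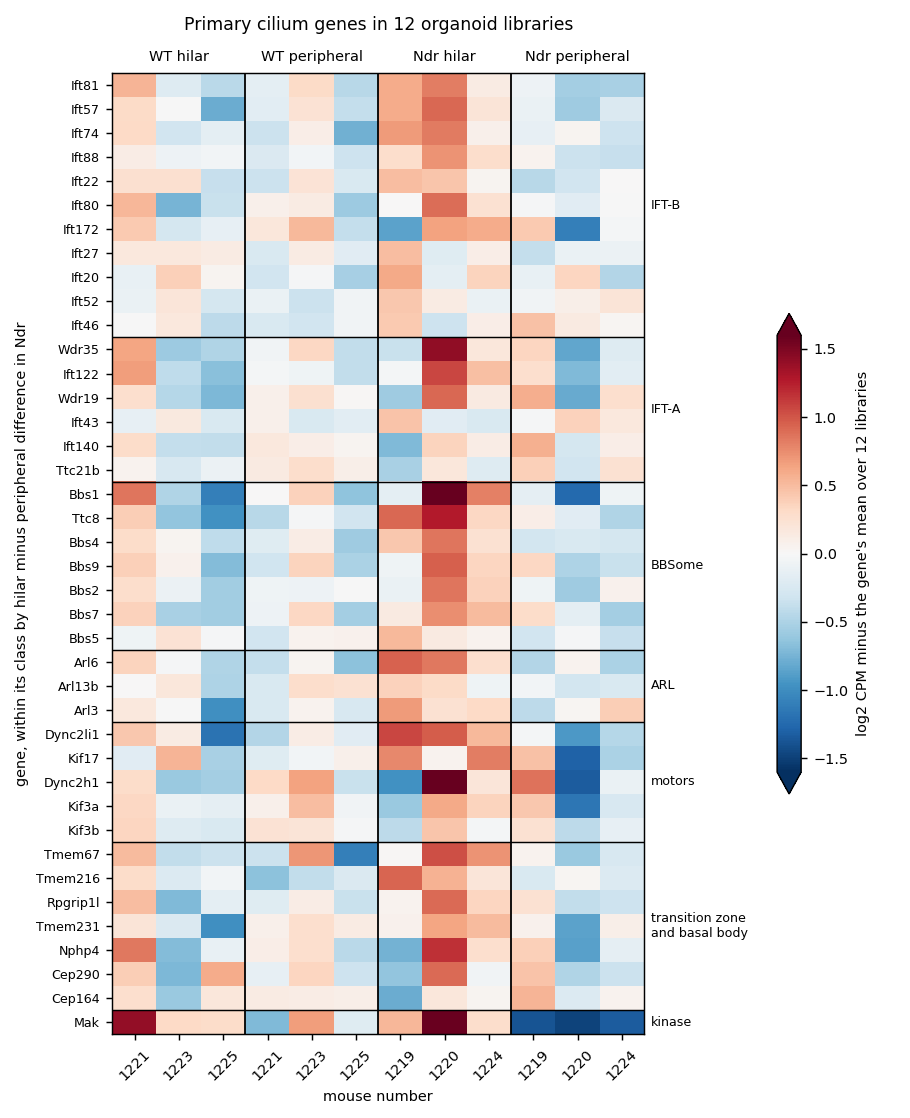
Centred log2 CPM of the 40 genes (rows, by class) in 12 libraries (columns, by group and mouse number); red is above and blue below the gene's own mean, and colours saturate at the ends of the bar. The column of Ndr hilar 1220 is red in most rows, and Mak is blue in all 3 Ndr peripheral libraries.

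**Figure D3:**
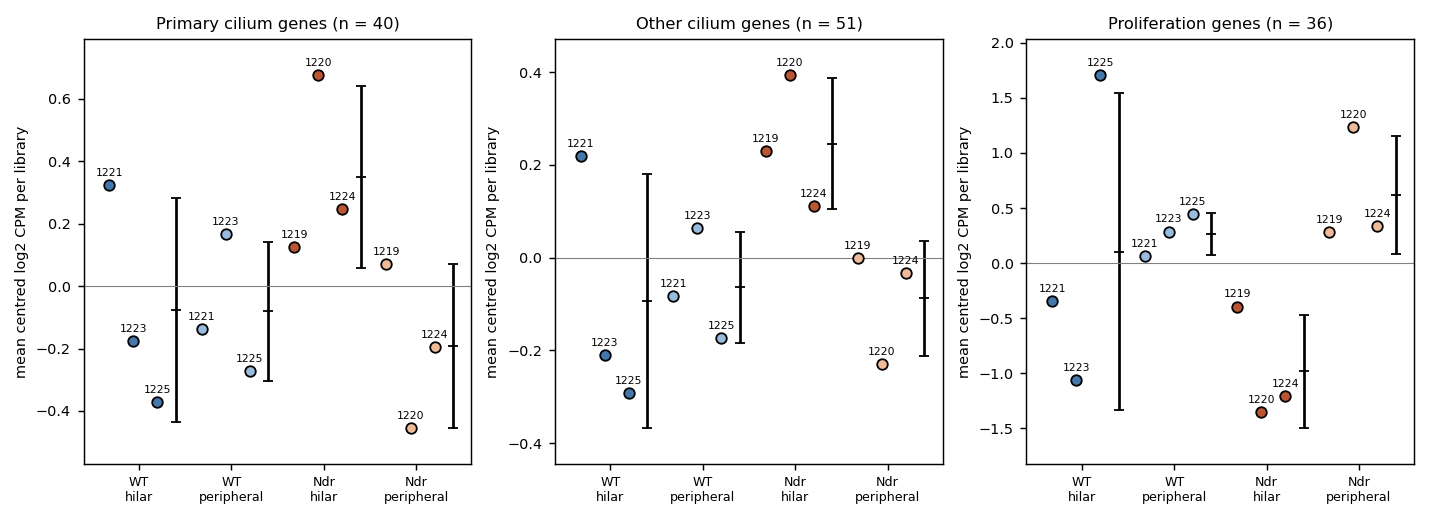
Mean centred log2 CPM of each library for the primary cilium genes, a second list of cilium genes and proliferation genes; points are libraries with their mouse number and bars the group mean ± SD (n = 3). The Ndr hilar libraries stand at 0.12 to 0.68 for the cilium genes and at -1.36 to -0.39 for proliferation genes.

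In Ndr mice, the comparison of hilar with peripheral cultures asks whether the duct region of origin marks these genes. The median log2 difference over the 40 genes was 0.59, with 35 of them positive, while the median over all genes was -0.01. edgeR's quasi-likelihood test called 0 of the 40 genes and 0% of all genes at an adjusted p under 0.05. At an unadjusted p under 0.05, 12 members were higher in hilar cultures and 0 lower, against 4.61% of all genes higher. DESeq2 called 1 member, Mak, with 0.481% of all genes called, and limma-voom called 0. The 3 hilar libraries lay above all 3 peripheral libraries for 13 members (7.49% of all genes). Within mice, hilar exceeded peripheral for 21 of the 40 genes in mouse 1219, 36 in mouse 1220 and 34 in mouse 1224. Over all genes these shares were 51.3%, 49.3% and 47.4%. The members' median difference was 0.01, 1.20 and 0.41 in these mice, so the 40 genes as a whole had no lean in mouse 1219. In that mouse the 20 members with the shortest exons had a median centred log2 CPM of 0.51 in hilar and -0.06 in peripheral culture. The 20 with the longest exons had -0.26 in hilar and 0.34 in peripheral culture. Higher in hilar culture in all 3 mice were 16 genes, a count not taken over all genes.

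Mak, a kinase of the cilium axoneme that restrains cilium length, differed most. Its level was 5.22, 10.97 and 4.34 CPM in Ndr hilar cultures of mice 1219, 1220 and 1224, and 1.24, 1.13 and 1.28 CPM in their peripheral cultures. The groups did not overlap, and the 3 Ndr peripheral libraries were the lowest of all 12. The log2 difference was 2.48 ± 0.53 (SE), with an unadjusted p = 0.00068 and an adjusted p = 0.418 in edgeR. DESeq2 gave 2.50 with an adjusted p = 0.0081, and over all 15 alternatives, libraries left out in turn included, the difference ranged from 1.98 to 2.73. Mak was also the least abundant of these genes but one per kb, with as few as 12 counts in a library.

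All 5 motor genes were positive, with a median of 0.58, and Dync2li1 had the largest difference of them. It measured 95.8, 89.6 and 65.2 CPM in Ndr hilar cultures (mice 1219, 1220 and 1224) and 44.6, 24.1 and 33.2 CPM in Ndr peripheral cultures, with no overlap. The log2 difference was 1.30 ± 0.38 (unadjusted p = 0.00558, adjusted p = 0.418 in edgeR). Kif3b, a motor subunit of heterotrimeric kinesin-2 and the most abundant motor gene before division by length, averaged 87 ± 26 CPM in Ndr hilar and 79.9 ± 18.5 CPM in Ndr peripheral cultures, which overlapped. Kif3a, its partner, averaged 65.8 ± 25.4 and 49.9 ± 25.9 CPM. Kif17 and Dync2h1 had differences of 1.02 and 0.58 with overlapping groups.

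In IFT-B, 10 of 11 genes were positive, with a median of 0.50. For 6 of them (Ift22, Ift57, Ift74, Ift80, Ift81 and Ift88) hilar and peripheral libraries did not overlap. The nearest libraries of Ift80 nearly touched, at 41.78 CPM (hilar 1219) and 41.72 CPM (peripheral 1224). Ift88, a core subunit whose loss stops cilium assembly, measured 33.6, 45.6 and 33.6 CPM in hilar and 28.8, 21.8 and 21.3 CPM in peripheral Ndr cultures (mice 1219, 1220 and 1224). Its difference was 0.65 ± 0.20. Ift57, whose promoter carries 2 X-boxes shown above, measured 78.6, 98.2 and 60 CPM in hilar and 48.1, 35 and 44.2 CPM in peripheral cultures, with a difference of 0.90 ± 0.30. Ift46, the most abundant IFT-B member by CPM, was the exception at -0.13 ± 0.23. In IFT-A, 3 of 6 genes were positive, with a median of 0.02, and hilar and peripheral groups overlapped for all 6. Ttc21b, the IFT-A subunit with the highest mean CPM, had a difference of -0.29 ± 0.23. Whether IFT-B and IFT-A differ from each other was not tested. The 2 classes also differ in exon length. All IFT-A genes but Ift43 have 7.27 kb or more, and all IFT-B genes but Ift80 have 6.62 kb or less. Levels moved with exon length in several libraries, as given below, and the part of length in these class values was not tested.

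The BBSome and its recruiting GTPase Arl6 lay on the hilar side in Ndr mice. All 7 BBSome genes were positive, with a median of 0.60, and Bbs4, Bbs5 and Ttc8 had no overlap between groups. Ttc8 (also called BBS8) measured 42.5, 54.2 and 28.3 CPM in hilar and 24.1, 19.7 and 16 CPM in peripheral cultures of mice 1219, 1220 and 1224, and its difference was 1.06 ± 0.36. Bbs4, a BBSome subunit linked to centriolar satellites, measured 17.6, 23.6 and 15.4 CPM against 10.5, 10.9 and 10.6 CPM, a difference of 0.82 ± 0.27. Bbs1 had a larger difference of 1.44 ± 0.60, but its groups overlapped, with 11.2, 44.1 and 22.2 CPM in hilar cultures. Arl6 (also called BBS3), which brings the BBSome to membranes, measured 51.7, 47.9 and 32.2 CPM against 19.2, 27.6 and 18.7 CPM, with no overlap and a difference of 1.01 ± 0.29. For Arl6, Ift88 and Bbs4 the unadjusted p was 0.00559, 0.00837 and 0.0107, with an adjusted p = 0.418 for each in edgeR. Arl3, which releases lipidated cargo in the cilium and is the ARL gene with the highest CPM, had a difference of 0.39 ± 0.30 with overlapping groups.

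In the transition zone and basal body class, 6 of 7 genes were positive, with a median of 0.59, and Tmem216 alone had no overlap. Tmem216, a membrane protein of the transition zone, measured 22.1, 17 and 13.2 CPM in hilar and 9.71, 11.8 and 9.88 CPM in peripheral Ndr cultures, a difference of 0.74 ± 0.26. Cep164, a distal appendage protein that docks the basal body and the most abundant gene of the class by CPM, had a difference of -0.30 ± 0.31. Without each single library in turn, the median of the Ndr comparison over 40 genes lay between 0.45 and 0.73. The members at an unadjusted p under 0.05 in edgeR then numbered between 9 and 14. No mouse was left out whole here, and the medians within mice ran from 0.01 (mouse 1219) to 1.20 (mouse 1220).

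**Figure D4:**
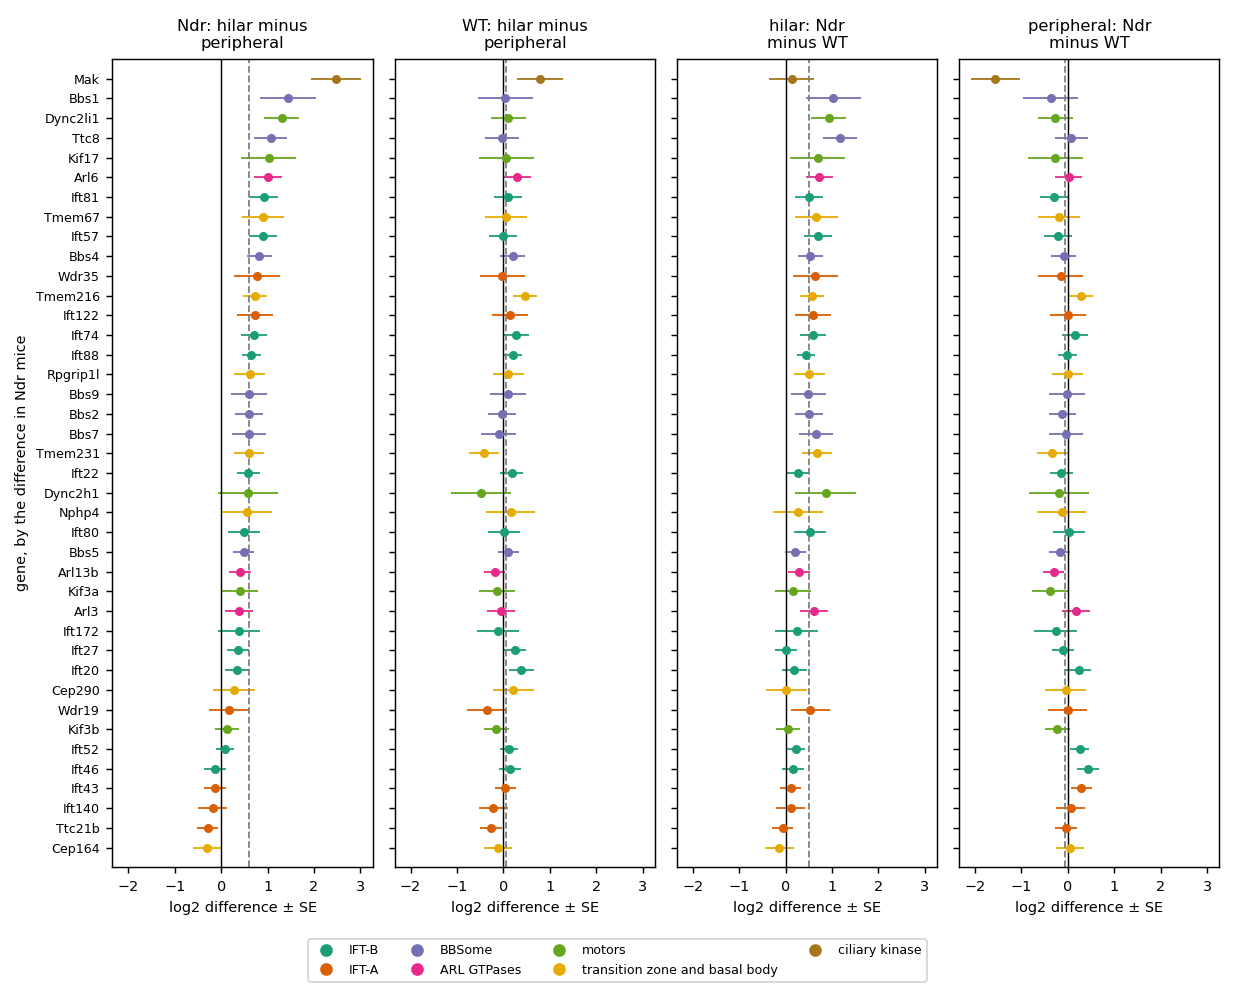
Log2 difference ± SE from edgeR for the 40 genes (rows, ordered by the Ndr comparison, coloured by class) in 4 comparisons; dashed lines mark the medians of 0.59, 0.05, 0.51 and -0.07 from left to right. The hilar comparisons that include the Ndr hilar libraries lie mostly to the right of 0.

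In WT mice, hilar and peripheral cultures showed no common direction in these genes. The median log2 difference was 0.05, with 24 of 40 positive, and over all genes it was 0.03. edgeR called 0 of the 40 genes (0% of all genes), with 0 members at an unadjusted p under 0.05 against 0.506% of all genes, and DESeq2 and limma-voom also called 0. So small a share over all genes lies far below the threshold itself, so the lack of such members does not show that the regions are alike. The sign of the median turned when WT hilar 1221 (-0.23), WT peripheral 1221 (-0.01) or WT peripheral 1225 (-0.05) was left out, and without WT hilar 1225 it was 0.22. The hilar culture was the higher for 37 of the 40 genes in mouse 1221, 10 in mouse 1223 and 16 in mouse 1225. Over all genes these shares were 52.8%, 49.3% and 47.0%. Higher in all 3 mice were 3 genes, a count not taken over all genes. Tmem216 and Ift27 had hilar libraries above all peripheral ones (2.94% of all genes), and Ttc21b had them below (2.6% of all genes). Tmem216 measured 14.1, 9.89 and 11.2 CPM in hilar and 7.23, 8.73 and 9.75 CPM in peripheral WT cultures of mice 1221, 1223 and 1225, a difference of 0.46 ± 0.26 (unadjusted p = 0.105). Ift27, a small GTPase-like IFT-B subunit, stood at 13, 13 and 12.7 CPM against 9.75, 12.7 and 10.2 CPM, where the nearest libraries nearly touched. Mak differed by 0.79 ± 0.50, Ift20 by 0.38 ± 0.27 and Tmem231, a transition zone protein, by -0.42 ± 0.33, each with overlapping groups.

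Between genotypes in hilar cultures, the members leaned toward Ndr. The median log2 difference (Ndr minus WT) was 0.51, with 38 of the 40 genes positive, and over all genes it was 0.00. edgeR called 0 of the 40 genes (0% of all genes). At an unadjusted p under 0.05, 5 members were higher and 0 lower, where 2.86% of all genes were higher, and DESeq2 and limma-voom called 0 members. Dync2li1, Ift88 and Arl3 had all 3 Ndr hilar libraries above all 3 WT hilar libraries (4.57% of all genes). This comparison and the regional one in Ndr mice share the 3 Ndr hilar libraries, so they are not independent. By class, the medians were 0.69 for the 5 motors, 0.62 for the 3 ARL GTPases, 0.53 for the 7 BBSome genes, 0.51 for the 7 transition zone and basal body genes, 0.32 for the 6 IFT-A genes and 0.27 for the 11 IFT-B genes.

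Ttc8 had the smallest p in this comparison. It measured 29.6, 14.4 and 11.3 CPM in WT hilar cultures (mice 1221, 1223 and 1225) and 42.5, 54.2 and 28.3 CPM in Ndr hilar cultures (mice 1219, 1220 and 1224). WT 1221 lay just above Ndr 1224, so the groups overlapped. The log2 difference was 1.17 ± 0.36, with an unadjusted p = 0.008 and an adjusted p = 0.75 in edgeR. Dync2li1 measured 61.7, 50 and 20.1 CPM in WT and 95.8, 89.6 and 65.2 CPM in Ndr hilar cultures, a difference of 0.92 ± 0.38 (unadjusted p = 0.0316). Arl6 stood at 34.2, 26.3 and 19 CPM in WT and 51.7, 47.9 and 32.2 CPM in Ndr, a difference of 0.73 ± 0.29. The highest WT library for Arl6 was again mouse 1221, which lay above Ndr 1224. Ift57 differed by 0.70 ± 0.30 and Tmem216 by 0.57 ± 0.26, with overlap. Ift88 stood at 30.1, 26.3 and 26.8 CPM in WT and 33.6, 45.6 and 33.6 CPM in Ndr, a difference of 0.44 ± 0.20 without overlap. Arl3 stood at 43.3, 38.5 and 19.5 CPM in WT and 61.6, 45.7 and 48.1 CPM in Ndr, a difference of 0.62 ± 0.30.

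The size of the hilar genotype difference depended on single libraries. Without Ndr hilar 1220 the median over the 40 genes was 0.23, with 30 positive and 1 at an unadjusted p under 0.05. Without WT hilar 1225 it was 0.33 with 1 such gene, without WT hilar 1223 it was 0.41 with 2, and without WT hilar 1221 it was 0.71 with 15. On the 1 derivation day with both genotypes, Ndr hilar 1224 lay above WT hilar 1225 for 34 of the 40 genes, with a median difference of 0.54. That count was not taken over all genes, and WT hilar 1225 had the lowest members' mean of the WT hilar libraries. With the day as a factor the median was 0.61. That fit compares the genotypes through the same day, mice 1224 and 1225, so it is not a second check. When edgeR was run on whole counts recovered from the authors' normalized table instead of the raw counts, 4 members and 9.84% of all genes were called in this comparison.

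Between genotypes in peripheral cultures the members showed no lean that held. The median log2 difference was -0.07, with 14 of 40 positive, and edgeR called 0 of the 40 genes and 0% of all genes. The median changed sign without WT peripheral 1223 (0.03), without Ndr peripheral 1220 (0.04), with derivation day as a factor (0.12), and on the counts recovered from the normalized table (0.10). Mak was the 1 member at an unadjusted p under 0.05 (1.47% of all genes were lower at that level), and DESeq2 and limma-voom called 0 members. Mak stood at 2.10, 5.74 and 3.07 CPM in WT peripheral cultures (mice 1221, 1223 and 1225) and 1.24, 1.13 and 1.28 CPM in Ndr peripheral cultures, below WT without overlap (3.61% of all genes). Its log2 difference was -1.56 ± 0.53, with an unadjusted p = 0.0125 and an adjusted p = 1 in edgeR. Ift46 and Ift52 had Ndr libraries above all WT ones, which is near the share over all genes (5.41%). Ift46 stood at 46, 44.1 and 52.6 CPM in WT and 75.9, 60.6 and 55.9 CPM in Ndr cultures, a difference of 0.43 ± 0.23. Ift52 differed by 0.25 ± 0.20. Arl13b, a ciliary membrane GTPase, differed by -0.31 ± 0.23 and Ift43, a small IFT-A subunit, by 0.29 ± 0.23, both with overlap.

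With the 2 cultures of each mouse added together, the 6 mouse totals gave a median log2 difference of 0.16 between Ndr and WT, with 29 of 40 positive, and 0.00 over all genes. edgeR called 0 of the 40 genes (0% of all 15401 genes tested), with 1 at an unadjusted p under 0.05 (Ttc8; 2.49% of all genes were higher at that level), and DESeq2 and limma-voom called 0 members. Without mouse 1225 the median was 0.01, without mouse 1220 it was 0.10, and without mouse 1221 it was 0.24. Ndr mice lay above all WT mice for Ift52, Arl3, Ift46 and Ift43 (5.49% of all genes). Ift52 totals were 46.7, 46.8 and 45.3 CPM in WT mice 1221, 1223 and 1225 and 56.7, 52.7 and 52.9 CPM in Ndr mice 1219, 1220 and 1224. That is a narrow band in each genotype, and the difference was 0.23 ± 0.11 (unadjusted p = 0.0783, adjusted p = 0.903 in edgeR). Ttc8 totals were 24.3, 18.8 and 15.2 CPM in WT and 33, 33.4 and 21.3 CPM in Ndr mice, a difference of 0.59 ± 0.25 with overlap. Arl3 differed by 0.37 ± 0.18, Tmem216 by 0.39 ± 0.20 and Ift46 by 0.27 ± 0.15. On the counts recovered from the normalized table, 21 members, 20 of them higher in Ndr, and 43% of all genes were called in this comparison.

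The genotype by region term asks whether the hilar and peripheral differences between genotypes differ. Its median over the 40 genes was 0.51, with 34 positive, against -0.05 over all genes. edgeR called 0 members and 0% of all genes, with 2 members at an unadjusted p under 0.05 in the positive direction (1.09% of all genes), and DESeq2 and limma-voom called 0 members. The 2 were Mak, at 1.69 ± 0.72, and Dync2li1, at 1.20 ± 0.53, each with an adjusted p = 0.994 in edgeR. Tmem231 followed at 1.01 ± 0.46, Ttc8 at 1.09 ± 0.51 and Ift57 at 0.91 ± 0.42. The median was 0.29 without Ndr hilar 1220 and 0.76 without WT hilar 1221. Averaged over both genotypes, hilar minus peripheral had a median of 0.33 with 34 positive. edgeR called 0 members there (0% of all genes), with 8 at an unadjusted p under 0.05 (2.7% of all genes higher), and DESeq2 and limma-voom called 0. Mak led with 1.63 ± 0.36, followed by Tmem216 with 0.60 ± 0.18, Arl6 with 0.65 ± 0.21, Ift88 with 0.42 ± 0.14 and Bbs4 with 0.51 ± 0.19. Without WT hilar 1221 this median was 0.20.

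The level of the members also moved with the length of their exons, in a way that differed between libraries. Exon lengths of the 40 genes ran from 1.52 to 16.3 kb. Across the 40 genes of one library, Spearman's correlation of centred log2 CPM with exon length was -0.72 in Ndr hilar 1219, -0.66 in WT hilar 1223 and -0.45 in Ndr peripheral 1220. It was 0.44 in Ndr hilar 1220, 0.46 in WT hilar 1221 and 0.60 in Ndr peripheral 1219. These are descriptions across genes, which share their library and are not replicates, and over 14988 genes the same correlation ranged from -0.45 to 0.35. In Ndr hilar 1219, the 20 members with the shortest exons had a median of 0.51 and the 20 longest -0.26, whereas in Ndr hilar 1220 both were positive (0.58 and 0.90). In the hilar genotype difference the shortest and longest 20 had like medians of 0.54 and 0.50, and in the Ndr regional difference 0.60 and 0.57. Both differences average libraries whose length correlations had opposite signs, so like medians do not show that length had no part in single libraries. With each library's length trend taken out as an offset, a setting chosen after seeing the data, 0 members were called. The medians over 40 genes were then 0.50 in the hilar genotype and 0.58 in the Ndr regional difference.

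**Figure D5:**
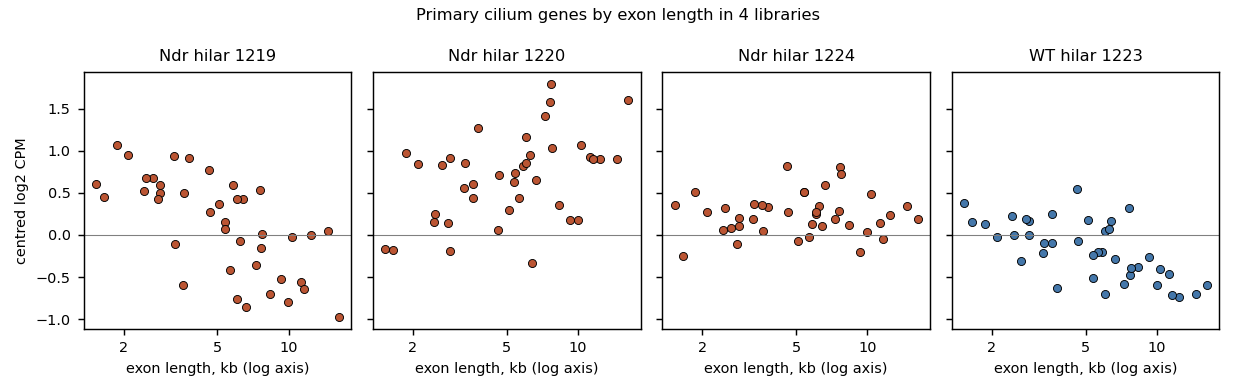
Centred log2 CPM of the 40 genes against exon length (kb, log axis) in the 3 Ndr hilar libraries and WT hilar 1223. Short genes are high and long genes low in Ndr hilar 1219 (Spearman's correlation -0.72) and the slope is the other way in Ndr hilar 1220 (0.44).

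Proliferation genes stood opposite to the cilium genes in the groups that differed most. All 36 proliferation genes were lower in Ndr hilar than in Ndr peripheral cultures, with a median of -1.77, and 29 of them without overlap (7.93% of all genes in that direction). Top2a, the DNA topoisomerase of dividing cells, stood at 89.4, 51.9 and 60.1 CPM in Ndr hilar and 224, 323 and 223 CPM in Ndr peripheral cultures. All 36 were also lower in Ndr than in WT hilar cultures, with a median of -1.75, but that median was -0.29 without WT hilar 1225, where Top2a reached 508 CPM against 108 and 82 CPM in the other WT hilar cultures. Mcm6, a subunit of the replicative helicase, averaged 99.7 ± 9.40 CPM in Ndr hilar and 166 ± 14.4 CPM in Ndr peripheral cultures. The library with the highest cilium mean, Ndr hilar 1220, had the lowest proliferation mean (-1.36), and Ndr peripheral 1220, with the lowest cilium mean, had the second highest (1.23). Not every library ran opposite: WT hilar 1223 was low in both (-0.18 and -1.06). WT peripheral 1223 (0.17 and 0.29) and Ndr peripheral 1219 (0.07 and 0.28) were above 0 in both. All remaining libraries had opposite signs, among them WT hilar 1225 (-0.37 and 1.71), which had the highest proliferation mean. The part of proliferation in the cilium result was not tested.

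A second list of cilium genes leaned the same way. It was read in the same libraries and chosen with earlier results of these data known, so it is not an independent check. Of 52 further cilium genes 51 were matched and tested, and in the Ndr regional comparison 39 were positive, with a median of 0.36. At an unadjusted p under 0.05 in edgeR, 12 were higher (4.61% of all genes) and none lower. That median was 0.20 without Ndr hilar 1220, and the count at that level was 5 without Ndr hilar 1219 and 6 without Ndr peripheral 1224. In the hilar genotype comparison 42 were positive, with a median of 0.38 and 8 at that level (2.86% of all genes were higher at that level). There the median was 0.24 without Ndr hilar 1220, and the count was 3 without it, 2 without WT hilar 1225, 5 without WT hilar 1223 and 14 without WT hilar 1221. edgeR called 0 of them at an adjusted p under 0.05 in either comparison. The most abundant, Unc119b, a carrier of myristoylated cargo, and Rab8a, a GTPase of ciliary membrane traffic, had regional differences of -0.02 ± 0.19 and -0.16 ± 0.20. The 12 genes of cilium disassembly and capping had no common direction in the Ndr regional comparison, with 5 positive and a median of -0.08. Of them 4 lay below without overlap (7.93% of all genes) and 1 above (7.49% of all genes). The 4 were the kinases Plk1, Nek2, Aurka and Plk4, which stood lower in Ndr hilar than in Ndr peripheral cultures, at -2.43 ± 0.72, -2.14 ± 0.67, -1.98 ± 0.78 and -1.51 ± 0.60. These 4 were chosen after their values were seen. All 36 proliferation genes were also lower in this comparison, and the part of proliferation in these 4 was not tested. The most abundant of that list, Nedd9, a scaffold that activates Aurora A, stood higher at 0.73 ± 0.34, and Trp53bp1 differed by 0.29 ± 0.36.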

How the data were processed

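Gene counts were made by the authors with featureCounts against GRCm39, as the submitters' processing notes list. Which aligner, annotation release and strand setting they used is not given in the sources used here. Libraries came from a kit that does not mark strand. The deposited raw counts (12 libraries, 53700 genes) were used as they are. The authors also deposited a normalized signal table (counts divided by size factors; DESeq2 1.34.0 per those notes). Its values gave whole reads for 100% of entries within 0.01, but only 43.1% equalled the raw counts, so it served as an alternative only. edgeR 4.0.16 (TMM, filterByExpr with a minimum count of 10, quasi-likelihood F test, robust) was run in R 4.3.3 on 12 libraries with 1 coefficient per group (8 residual degrees of freedom) and on 6 mouse totals (4), with Benjamini-Hochberg adjustment over all genes tested. DESeq2 1.42.0 and limma-voom (limma 3.58.1) were alternatives. Symbols and exon lengths came from GENCODE M21 (GRCm38), used for names and lengths only.

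Centred log2 CPM used a prior count of 2. Named members were those past the threshold or, as fewer than 5 passed, the 5 with the smallest p in each comparison, the most abundant of each class and the 3 highest and lowest per length; of other lists the 2 most abundant. Members and lists were chosen with earlier results of these data known. The fits were tested on simulated data. Hilar and peripheral cultures of the same number come from the same mouse; their deviations correlated from -0.34 to 0.45, so mouse as a block was an alternative. With 1 culture per mouse and region, p-values measure the spread between mice and cultures together.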

Additional observations from a re-analysis of the deposited data

How the results depend on the processing

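The members' median kept its sign under all alternatives in the hilar genotype comparison (0.23 to 0.71), the mouse totals (0.01 to 0.27), the Ndr regional comparison (0.45 to 0.73), the regional mean (0.20 to 0.41) and the genotype by region term (0.29 to 0.76). It changed sign in 4 of 15 alternatives for the peripheral genotype comparison (-0.25 to 0.12) and 3 of 15 for the WT regional one (-0.23 to 0.22). The number of members called was 0 in all comparisons and settings except 3: 4 (hilar genotype) and 21 (mouse totals) with counts recovered from the normalized table, and 1 (Ndr regional) with DESeq2. With mouse as a replicate block, 0 members were called in any comparison, as without it, and the median was 0.57 in the Ndr regional comparison and 0.54 in the genotype by region term. Leaving out each library, or each mouse in the mouse totals, gave 0 called members throughout. Depth limits Kif17, with 3 to 19 counts per library, most.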

Other observations

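Foxj1, the master transcription factor of motile cilia, was well expressed in these cultures, at 24 to 239 CPM, although the genes that define multiciliated cells were near or at 0. Mcidas, Deup1 and Gmnc, which drive the making of many centrioles, had 0 CPM in all 12 libraries, and only 9 of 23 motile cilium genes had enough counts to be tested. Summed over all 23 genes, motile cilium transcripts came to 51.2 to 79.9 CPM in Ndr hilar libraries, 18.6 to 24.9 in Ndr peripheral, 16.3 to 63.1 in WT hilar and 26.1 to 38.9 in WT peripheral libraries. Rsph9, a radial spoke protein, stood at 18.8, 16.9 and 16.3 CPM in Ndr hilar cultures (mice 1219, 1220 and 1224) and 9.40, 3.77 and 5.86 CPM in Ndr peripheral cultures. Cfap126 stood at 13.1, 10.8 and 11 CPM and 2.17, 4.15 and 2.29 CPM in the same cultures. Neither gene overlapped between these groups, and 7.49% of all genes likewise had hilar libraries above all peripheral ones. The log2 differences were 1.45 ± 0.52 and 2.01 ± 0.53, with an adjusted p = 0.424 and 0.418 in edgeR. Foxj1 differed by 1.06 ± 0.58 in the same comparison and by -0.04 ± 0.57 between genotypes in hilar cultures.

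Hedgehog signalling runs through the primary cilium, and its parts were expressed unevenly. Smo, the signal transducer that enters the cilium, averaged 105 CPM and Ptch1, the receptor that leaves it, 48.6 CPM. Shh and Gli2 had 0 CPM in all 12 libraries and Gli1, the usual target gene, at most 0.13 CPM. Among RFX factors and Foxj1, Foxj1 averaged 95.9 CPM and Rfx7 82.8 CPM, and Rfx7 differed by -0.35 ± 0.31 between hilar and peripheral Ndr cultures. Bicc1, an RNA-binding protein whose loss gives cysts, averaged 981 CPM with a group SD of up to 665 CPM, and Ganab, a glucosidase needed by polycystin-1, averaged 331 CPM. The tubulins Tubb4b and Tuba1a averaged 406 and 143 CPM and differed by -0.37 ± 0.45 and -0.36 ± 0.48 between hilar and peripheral Ndr cultures.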
